A study of Mus musculus with 6 samples.

Results

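Gamma-delta T cells of mouse colon tumours were taken from single-cell RNA-seq of whole tumours as barcodes with at least 2 UMIs (unique molecular identifiers, counted transcripts) of Cd3e, Cd3d and Cd3g together, at least 1 UMI of Trdc, the constant gene of the T cell receptor delta chain, no UMI of Foxp3, Cd4, Cd79a or Epcam, and at most 1 UMI of Lyz2. The rule gave 859 cells of 50875 barcodes that held 200 genes or more, with mitochondrial UMIs no higher than 20%. Of these cells, 663 (77.2%) held at least 1 UMI of Il17a and are called Il17a-positive, and 196 are called Il17a-negative. The genes of the rule chose the cells, so their values are given as a description and not tested. Il17a chose the split, so it is not tested between the positive and negative cells. It is tested between the tumour groups and against other T cells. Of 1479 kept barcodes with a Trdc UMI, 56 of the cells taken held exactly 1 Trdc UMI, 16 held exactly 2 CD3 UMIs and 166 held 1 Lyz2 UMI. Just outside the limits, 25 barcodes had 1 CD3 UMI and 138 had none, 35 had 2 Lyz2 UMIs, and 14 had Cd4 beside Trdc.

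The tumours came from male mice in 2 groups of 3 libraries each. In the group called Apc ICI, of genotype VilCreER Apcfl/fl, 70 µl of 100 µM 4-OH tamoxifen was injected once into the submucosa of the colon (intracolonic induction), and no further treatment is listed. In the group called AOM PN, of genotype VilcreER P53fl/fl Notch1Tg, 2 mg of tamoxifen was given intraperitoneally, followed from 4 days later by the colon carcinogen azoxymethane (AOM) at 10 mg/kg once weekly for 6 weeks; its group label is Ageing Tumor. All mice were culled at clinical endpoint. Genotype, route of induction and carcinogen changed together between the groups and cannot be told apart. The villin promoter drives the recombinase in intestinal epithelium, so recombination was directed to tumour epithelium and not to the T cells described here. The labels do not say that the 3 libraries of a group came from 3 separate mice, and p-values measure the spread between these libraries.

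Gamma-delta T cells carry a receptor of a gamma and a delta chain and are common in the skin, gut and other barrier tissues. Some of them leave the mouse thymus already set to make interleukin-17A and respond to IL-1 and IL-23 without needing recognition of peptide on MHC molecules. A fetal wave of these cells pairs the gamma variable segment Tcrg-V6 with the delta variable segment Trdv4, whereas other gamma-delta cells, among them those of the intestinal epithelium, are cytotoxic or make interferon gamma. In mouse colon tumours IL-17A from such cells is known to act on epithelium and to draw in neutrophils.

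Il17a (mm10, chr1:20730905-20734496, plus strand) and Il17f (chr1:20777146-20790617, minus strand) are neighbours, and both are shown with the 250 bases before their RefSeq start (GRCm38.p6) because their transcripts mark the main split among the cells. The gene ranges are GENCODE's; the RefSeq start of Il17f lies inside its GENCODE range, so the stretch shown for it is upstream of the RefSeq start only. No motif is marked.
Il17a, chr1:20730655-20730904, plus strand: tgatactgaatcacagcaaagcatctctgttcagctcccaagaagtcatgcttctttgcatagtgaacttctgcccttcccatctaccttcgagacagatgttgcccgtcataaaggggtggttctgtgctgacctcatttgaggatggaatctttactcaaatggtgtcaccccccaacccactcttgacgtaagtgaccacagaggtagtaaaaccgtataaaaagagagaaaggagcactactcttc
Il17f, chr1:20784271-20784520, minus strand, written 5′ to 3′ along the gene: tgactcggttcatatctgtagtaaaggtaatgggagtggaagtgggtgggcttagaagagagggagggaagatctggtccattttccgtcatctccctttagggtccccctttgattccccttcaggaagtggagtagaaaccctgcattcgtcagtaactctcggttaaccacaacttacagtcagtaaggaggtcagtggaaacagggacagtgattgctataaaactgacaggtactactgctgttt

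The 6 libraries held 59309093 to 98583066 UMIs over 31053 features and gave 5001 to 12782 kept barcodes each. Haemoglobin transcripts took 1.87% to 61.4% of a library's UMIs, with the highest share in Apc ICI 3 and the lowest in AOM PN 3. The gamma-delta cells had a median of 4787 to 7881.5 UMIs by library, and their own median haemoglobin share was 0.0115% to 1.12%. A barcode sequence occurred in more than 1 library for 529 kept barcodes; no gamma-delta barcode was also a gamma-delta barcode of another library, and 8 were kept barcodes of another. Simulated-doublet scoring marked 54 of the 859 cells; they were kept, and results without them were computed as an alternative. AOM PN 3 alone supplied 415 of the 859 cells, so all comparisons between groups were made over libraries.

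The gamma-delta cells made up a larger part of the T cells in Apc ICI tumours, while their part of all barcodes overlapped between the groups. They numbered 98, 72 and 46 in Apc ICI 1 to 3 and 138, 90 and 415 in AOM PN 1 to 3. As a share of all kept barcodes this was 1.96%, 0.981% and 0.88% in Apc ICI and 1.18%, 1.02% and 3.25% in AOM PN, so that AOM PN 3 was highest and the other 5 libraries intermixed. The means were 1.27% ± 0.596 and 1.82% ± 1.24 (SD, n = 3 each), a difference of 0.541 percentage points (two-sided exact permutation test, p = 0.5); without AOM PN 3 it was -0.174. Among CD3-positive barcodes selected by the same limits, whatever their Trdc, Cd4 or Foxp3, the cells made up 33.2%, 33.0% and 29.1% in Apc ICI and 10.3%, 15.7% and 24.7% in AOM PN. The groups did not overlap, and the means of 31.8% ± 2.32 and 16.9% ± 7.31 (SD, n = 3 each) differed by -14.9 percentage points at p = 0.1, the smallest value that an exact two-sided permutation test of 3 against 3 libraries can give. A share of T cells also moves with the number of other T cells, of which CD3-positive barcodes in all numbered 158 to 295 in Apc ICI and from 574 to 1677 in AOM PN.

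The selected cells carried the genes of the gamma-delta receptor beyond the Trdc used to choose them. The constant gene Tcrg-C1 (chr13:19214103-19217024, plus strand) had a UMI in 92.9%, 77.8% and 89.1% of them in Apc ICI and 82.6%, 77.8% and 81.2% in AOM PN, against at most 0.578% of B cells in any library. It was not exclusive among T cells: by library, 15.2% to 28.2% of CD4 and 6.47% to 57.1% of CD8 T cells without Trdc had a Tcrg-C1 UMI. The reads of Tcrg-C1 and Tcrg-C2, which are near-identical copies, may have been split or dropped in counting, so their levels are uncertain. The variable segment Trdv4 (chr14:54074905-54075515, plus strand) had a UMI in 83.7%, 65.3% and 76.1% of the cells in Apc ICI and in 57.2%, 55.6% and 63.1% in AOM PN. Tcrg-V6, the segment that pairs with it in the fetal wave, was found in 41.8%, 26.4% and 28.3% in Apc ICI and 17.4%, 17.8% and 22.2% in AOM PN, whereas the segments Tcrg-V1, Tcrg-V4, Tcrg-V5 and Tcrg-V7 reached at most 12.2% in any library. Both segments thus had their highest shares in Apc ICI libraries in cells of unequal depth. Trdv4 did not keep that separation after thinning, and the summed level of Tcrg-V6 overlapped between the groups, as given further on. A Trac UMI, from the receptor alpha chain, was found in 261 cells (30.4%), and Trbc2, of the beta chain, in 70.8% to 94.4% by library. The summed level of a fixed list of alpha-beta T cell markers was 1450 to 2340 CPM (counts scaled to a common total per sum) in Apc ICI and from 1770 to 2020 CPM in AOM PN, with Cd4 and Foxp3 at 0 by the rule.

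Il17a was detected in most of the cells in every library, with a far wider spread between AOM PN libraries than between Apc ICI libraries. A UMI was present in 75.5%, 77.8% and 84.8% of the gamma-delta cells in Apc ICI and in 58.0%, 67.8% and 85.1% in AOM PN. After each cell was thinned to 1000 UMIs, which left out 15 shallower cells, the shares were 64.6%, 63.6% and 61.4% in Apc ICI and 52.2%, 54.4% and 79.1% in AOM PN. AOM PN 3 lay above all Apc ICI libraries and AOM PN 1 and 2 below them, and the thinned means of 63.2% ± 1.65 and 61.9% ± 14.9 (SD, n = 3 each) differed by -1.27 percentage points (two-sided exact permutation test, p = 1.0). The difference was 3.59 without AOM PN 1, 2.47 without AOM PN 2 and -9.87 without AOM PN 3.

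The Il17a signal per cell was far above that of free RNA. The positive cells held a median of 33, 16 and 12 Il17a UMIs in Apc ICI and 23, 35 and 60 in AOM PN, and the highest single cell held 565. At least 10 Il17a UMIs were found in 499 of the 859 cells, and 37 of the positive cells (5.58%) held exactly 1. In B cells of the same libraries, which should lack the transcript, an Il17a UMI was present in 0.0% to 4.65% of barcodes at median depths of 3393 to 13408 UMIs, and in neutrophils in 0.54% to 4.91% at 2833 to 3887 UMIs. The shares in the gamma-delta cells were above both in every library.

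The cells held a large part of all Il17a transcripts in the kept barcodes. This part was 34.3%, 37.4% and 51.8% in Apc ICI and 27.7%, 36.6% and 50.4% in AOM PN, 45849 UMIs in total, although they were 1.69% of the barcodes. Conventional CD4 T cells (CD3-positive, Cd4-positive, no Trdc or Foxp3) held 1.79% to 7.06% in Apc ICI and from 5.52% to 23.2% in AOM PN, with the highest part in AOM PN 1. CD8 T cells (Cd8b1-positive, no Cd4, Trdc or Foxp3) held 0.776% to 9.73% in Apc ICI and from 0.015% to 1.46% in AOM PN. Other CD3-positive barcodes held 11% to 40.5%. These were all those with a Foxp3 UMI and those with none of the marks above or a mixture of them. Barcodes that were not CD3-positive by the limits held 8.21% to 45.7%, and in Apc ICI 2 their 45.7% was above the 37.4% of the gamma-delta cells. Trdc itself had 71.3% to 86.7% of its UMIs in the selected cells.

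**Figure D1:**
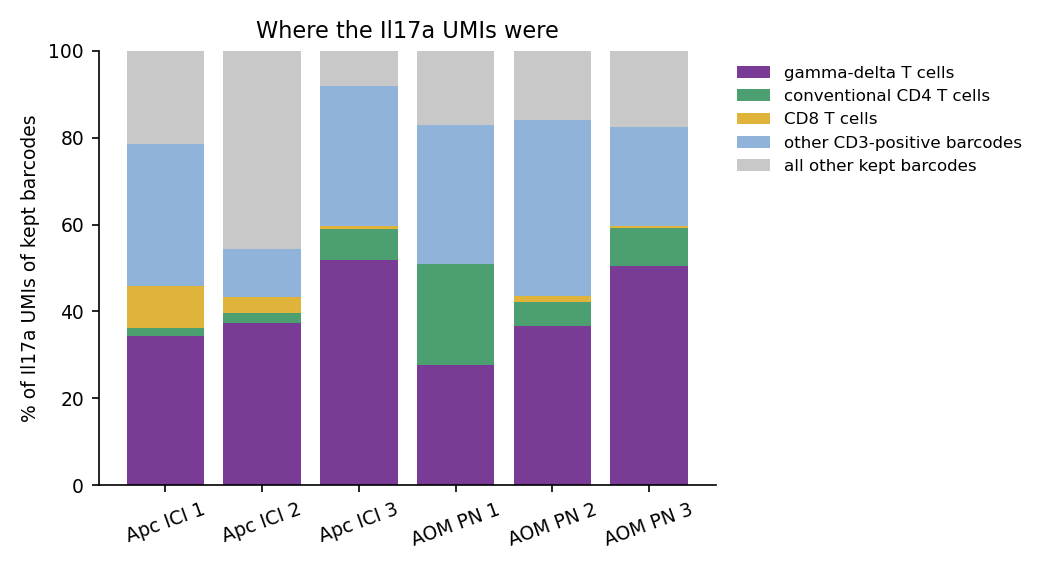
Stacked bars, one per library, divide all Il17a UMIs of the kept barcodes (vertical axis, percent) among gamma-delta cells, CD4 T cells, CD8 T cells, other CD3-positive barcodes and the rest. The gamma-delta part runs from 27.7% in AOM PN 1 to 51.8% in Apc ICI 3, and the CD4 part is largest in AOM PN 1 at 23.2%.

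The related cytokines were divided more unevenly. Il17f, the neighbour gene whose product pairs with IL-17A, had 57.0%, 32.3% and 23.1% of its UMIs in gamma-delta cells in Apc ICI and 23.2%, 11.4% and 31.6% in AOM PN. Il22, which acts on epithelium, had 35%, 5.34% and 79.0% there in Apc ICI and 6.73%, 15.3% and 21.5% in AOM PN. Few cells carried these transcripts: an Il17f UMI was found in 3.06%, 1.39% and 2.17% of gamma-delta cells in Apc ICI and 8.70%, 17.8% and 16.9% in AOM PN, while their summed Il17f level was 185, 356 and 28.4 CPM in the Apc ICI libraries and 197, 172 and 175 CPM in AOM PN. Because the shares and the CPM did not give the same order, no order of the groups was read for Il17f. Ifng, interferon gamma, had a UMI in at most 6.67% of the cells in any library.

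Between Il17a-positive and Il17a-negative cells, the genes that passed included type 17 genes, most of them higher in the positive cells, and genes of cytotoxic, intraepithelial and naive lymphocytes, all but Gzmb lower. Counts were summed over the cells of each kind in each library and compared within library by edgeR's quasi-likelihood test with Benjamini-Hochberg adjustment over 5458 genes; Apc ICI 3, with 7 negative cells, was left out, so 5 libraries entered. Of these genes 70 were higher and 65 lower in the positive cells, and percent called was 2.47, or 1.28 higher and 1.19 lower. The sign was the same in all 5 libraries for 15.8 percent of genes. That was required of genes named for the largest change, so it adds no support for them. Levels are CPM after scaling by edgeR's trimmed mean of M-values (TMM) within the comparison. The median number of UMIs per cell was 4593 to 8373.5 in positive and 4230.5 to 7433.0 in negative cells over the 6 libraries.

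Among cytokines, Il17f was the gene with the largest rise of those named by the rule. Its level in positive cells was 230 and 435 CPM in Apc ICI 1 and 2 and 333, 271 and 199 CPM in AOM PN 1 to 3, against 0 and 0 and 3.52, 3.79 and 13.3 CPM in negative cells. The log2 difference was 5.54 ± 0.39 (SE, adjusted p = 2.52e-05), in the same direction in the 5 libraries. In Apc ICI this rested on few cells, since the 155 Il17f UMIs of Apc ICI 1 came from 3 positive cells and the 135 of Apc ICI 2 from 1. None of the 47 negative cells of the 3 Apc ICI libraries held an Il17f UMI, which allows a share of up to 6.38%, above the share in the positive cells of Apc ICI 1 and 2 (4.05% and 1.79%), so the shares of cells in Apc ICI could not be told apart at this depth. Il22 was 1.75 ± 0.63 log2 units higher and did not pass (adjusted p = 0.185). Of the 8 tested genes in the list of type 17 cytokines, Il17f alone passed, with a list median of 0.44 against 0.0 over all genes.

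Of 15 tested type 17 factors 4 rose and 1 fell in the positive cells, with a median of 0.69. Blk, a B-lineage kinase also needed by IL-17-producing gamma-delta cells, was at 348, 335, 227, 229 and 287 CPM in positive cells against 132, 176, 91.5, 34.1 and 190 CPM in negative cells (1.3 ± 0.25, adjusted p = 0.0236), higher in every library. Hif1a, the hypoxia factor, Id2, an inhibitor of E proteins, and Maf, a type 17 factor, rose by 1.03, 0.93 and 0.85. Ikzf2 (Helios) went the other way, at 213, 174, 137, 123 and 156 CPM in positive and 628, 661, 704, 640 and 336 CPM in negative cells (-1.85 ± 0.20, adjusted p = 0.00111).

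Some receptor and receptor-chain genes rose too. Il1r1, the IL-1 receptor, rose by 1.17 ± 0.27 (adjusted p = 0.0458), and Cd163l1 (chr7:140218267-140231145, plus strand), a scavenger receptor found on IL-17-producing gamma-delta cells, by 1.07 ± 0.21 (adjusted p = 0.0236). Trdv4 was at 1330, 722, 1060, 1110 and 1140 CPM in positive cells against 1260, 220, 362, 125 and 570 CPM in negative cells (1.42 ± 0.33, adjusted p = 0.0458); the gap was small in Apc ICI 1 and wide in the other 4 libraries. Tcrg-C1 rose by 0.83 ± 0.18 (adjusted p = 0.0363). Il23r, the IL-23 receptor, Ccr6, a type 17 chemokine receptor, and Tcrg-V6 had differences of 0.76, 0.80 and 0.89 and did not pass (adjusted p = 0.357, 0.564 and 0.159). Of the type 17 receptor and surface genes 6 of 28 tested rose (Il1r1, Cd163l1, Tmem176a, Capg, S100a4 and Lgals1) and none fell, with a median of 0.68; of the gamma-delta receptor genes 2 of 6 rose.

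Of 8 tested tissue repair and growth factor genes 2 rose and none fell, with a median of 0.01, and of 14 tested checkpoint genes 4 rose and 1 fell, with a median of 0.5. Areg, amphiregulin, a ligand of the EGF receptor, was at 7240 and 7050 CPM in the Apc ICI libraries and 9730, 9320 and 6980 CPM in AOM PN in positive cells, against 5280 and 455 and 2480, 1270 and 1560 CPM in negative cells (2.24 ± 0.36, adjusted p = 0.0109), higher in each library although by little in Apc ICI 1. Hbegf, another EGF receptor ligand, rose by 2.16 ± 0.47 (adjusted p = 0.0364), Ptgs2, which makes prostaglandins, by 2.53, and Prdm1, a factor of effector lymphocytes, by 1.76. Gzmb, granzyme B, was at 1290, 993, 2510, 2210 and 1070 CPM against 780, 176, 1570, 534 and 240 CPM (1.54 ± 0.26, adjusted p = 0.0122), higher in the positive cells of all 5 libraries. The checkpoint genes Ctla4 and Havcr2 rose by 1.43 and 1.54, as did the activation factors Nr4a1 and Nr4a3 by 0.97 and 0.96, and Tnfrsf18 fell by 1.12. Of 13 glycolysis and hypoxia genes tested all 13 were higher in the positive cells, and Gapdh alone passed (0.61).

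Of the genes called in the cytotoxic, intraepithelial and naive lymphocyte lists, all but Gzmb were lower in the Il17a-positive cells; the counts are given after the values. Cd7, a surface protein of T and NK cells, was at 4.44, 3.22, 7.08, 8.47 and 16.4 CPM in positive cells and at 19.8 and 0.0 CPM in the negative cells of Apc ICI 1 and 2 but at 1340, 515 and 430 CPM in those of AOM PN 1 to 3 (-5.32 ± 0.48, adjusted p = 0.00025). It was thus high in the negative cells of the AOM PN libraries fitted, and Apc ICI 2 went the other way. In Apc ICI 3, which was left out of the fit, the 7 negative cells held 32 Cd7 UMIs, against 3 and 0 UMIs in the negative cells of Apc ICI 1 and 2. Ccl5, a chemokine of cytotoxic lymphocytes, was at 84.4, 25.8, 281, 33.9 and 77.3 CPM against 470, 396, 3070, 1570 and 226 CPM (-3.24 ± 0.44, adjusted p = 0.00408). Nkg7, a cytotoxic granule protein, was at 29.6, 6.45, 144, 27.5 and 73.9 CPM against 357, 58.7, 1020, 810 and 180 CPM (-2.99 ± 0.41, adjusted p = 0.00441). Both were lower in the positive cells of each of the 5 libraries.

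Klrd1 (CD94), part of an NK cell receptor, was at 193, 181, 70.8, 136 and 73.9 CPM in positive cells and 675, 411, 535, 681 and 167 CPM in negative cells (-1.89 ± 0.24, adjusted p = 0.00334). Tcf7, the factor TCF1 of naive and memory-like T cells, was at 5.92, 29.0, 23.6, 86.9 and 52.1 CPM against 59.5, 220, 158, 201 and 130 CPM (-1.94 ± 0.30, adjusted p = 0.0109). Both were higher in the negative cells of every library fitted. Cd8a had 3 UMIs over all positive cells and 114 over the negative cells, all of the latter in AOM PN (-5.90 ± 0.74, adjusted p = 0.00404). The costimulatory receptors Cd27 and Cd28, the kinase Lck, the integrin Itga1 and the chemokine receptor Cxcr3 fell by 3.79, 4.73, 3.54, 3.54 and 2.86 on the log2 scale.

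By list, 7 of 17 interferon gamma and cytotoxic genes tested fell (Ccl5, Nkg7, Ctsw, Xcl1, Cd27, Fasl and Cxcr3) and 1 rose (Gzmb), with a median of -1.36. Of 17 intraepithelial lymphocyte genes 7 fell and none rose, with a median of -2.11, and of 7 circulating and naive lymphocyte genes 3 fell (Tcf7, S1pr1 and Ccr7), with a median of -1.94; the median over all genes was 0.0. Ifng itself did not pass (0.60, adjusted p = 0.494), nor did Gzma, granzyme A (1.69, adjusted p = 0.268). Of 3 alpha-beta receptor constant genes tested none passed. Trac and Trbc2 differed by 0.02 and 0.05, and Trbc1 was not on the higher side in the positive cells. The negative cells were thus not shown to hold more alpha-beta receptor transcript. The summed level of an NK marker list, which includes Gzma, was 361 to 4560 CPM in positive and 14.5 to 1590 CPM in negative cells over the 6 libraries. Markers of other cells also differed between the sums of single libraries. The neutrophil list summed to 11300 CPM in the negative and 3020 CPM in the positive cells of Apc ICI 2, and in the other 5 libraries to 172 to 870 and 200 to 1760 CPM. The mast and basophil list summed, in negative and positive cells in turn, to 7540 and 147 CPM in AOM PN 2, 1620 and 4280 CPM in AOM PN 1, and 24800 and 19900 CPM in AOM PN 3. The erythroid list summed to 105000 CPM in the negative and 24700 CPM in the positive cells of AOM PN 1. Of the genes tested in these 3 lists none passed in the split. Of 2 tested genes of a B and plasma list, Ighm was lower in the positive cells (-3.61 ± 0.58, edgeR's adjusted p = 0.0109). Over the 6 libraries Ighm had 20 UMIs in AOM PN and 5 in Apc ICI in positive cells, and 80 and 11 in negative cells. The part of other cells' transcripts in the other differences was not tested.

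The calls for Il17f, Ccl5, Nkg7, Klrd1, Ikzf2, Ctsw and Ms4a4b held in all 14 alternative settings, and those for Cd7 and Xcl1 in all 13 in which they were tested. Without AOM PN 1 the number of calls fell from 135 to 23, and Blk, Ctla4, Trdv4, Cd163l1, Tcrg-C1, Il1r1, Tcf7 and Cd8a lost theirs; without Apc ICI 1, Apc ICI 2, AOM PN 2 and AOM PN 3 the numbers were 164, 72, 88 and 91.

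**Figure D2:**
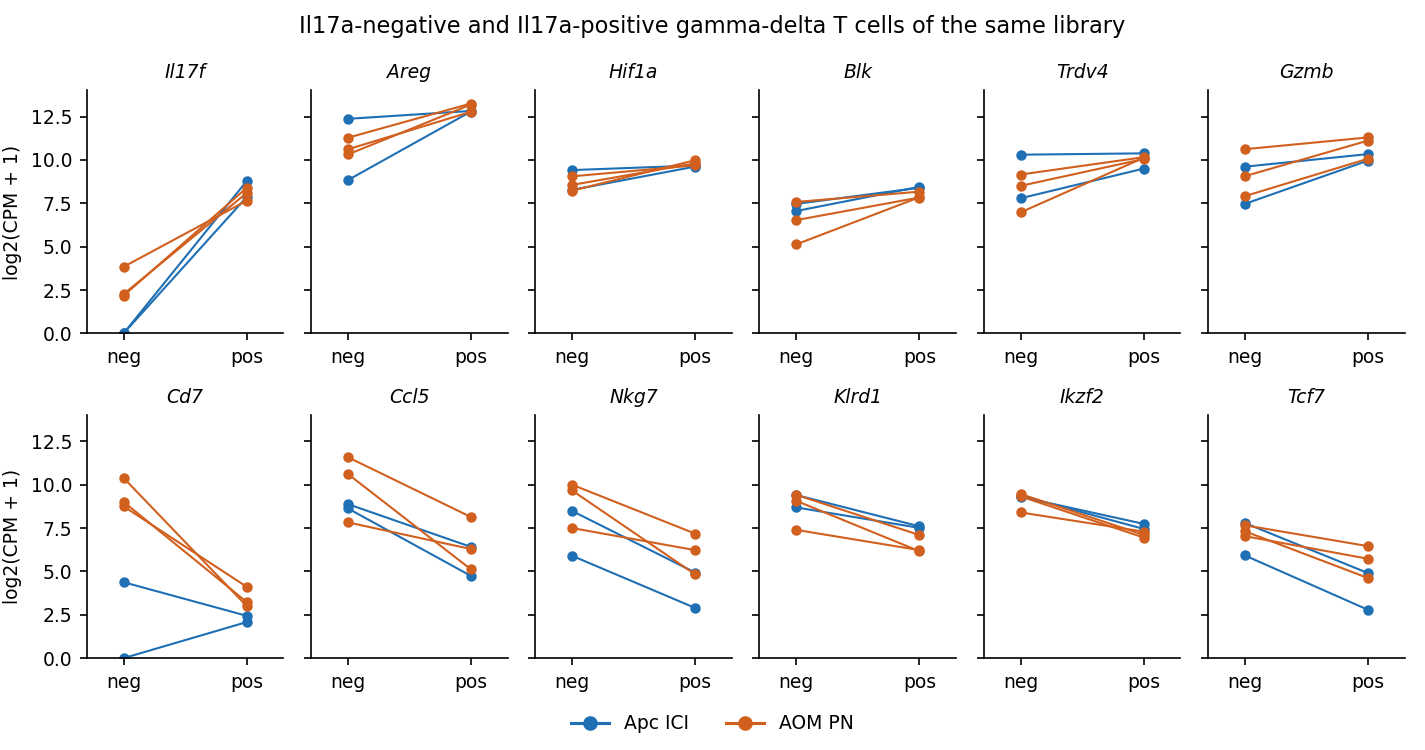
Levels of 12 genes on a log2(CPM + 1) scale (vertical axis) are shown for Il17a-negative and Il17a-positive gamma-delta cells (horizontal axis), with a line joining the 2 sums of each of the 5 libraries. Il17f, Areg, Hif1a, Blk, Trdv4 and Gzmb run upward to the positive cells, and Cd7, Ccl5, Nkg7, Klrd1, Ikzf2 and Tcf7 run downward, apart from Cd7 in Apc ICI 2.

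Cd163l1 and Trdv4 were also compared as shares of cells with a UMI at equal depth. After thinning to 1000 UMIs, Cd163l1 was found in 52.1%, 54.7% and 55.3% of positive cells in Apc ICI and 25.0%, 26.2% and 30.7% in AOM PN, against 13.0%, 23.1% and 50% and 7.14%, 6.9% and 15.0% of negative cells. Trdv4 was found in 63.0%, 45.3% and 47.4% of positive cells in Apc ICI and 50%, 47.5% and 49.4% in AOM PN, against 56.5%, 23.1% and 66.7% and 21.4%, 13.8% and 25.0% of negative cells. Trdv4 was thus less frequent in the negative cells of all 3 AOM PN libraries and of 2 Apc ICI libraries, while Apc ICI 3, with few negative cells, went the other way. Over all gamma-delta cells at this depth, Trdv4 stood at 61.5%, 40.9% and 50% in Apc ICI and 38.2%, 36.7% and 45.9% in AOM PN, which overlapped. Cd163l1 stood at 42.7%, 48.5% and 54.5% against 17.6%, 20% and 28.4%, which did not. These shares were not tested.

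**Figure D3:**
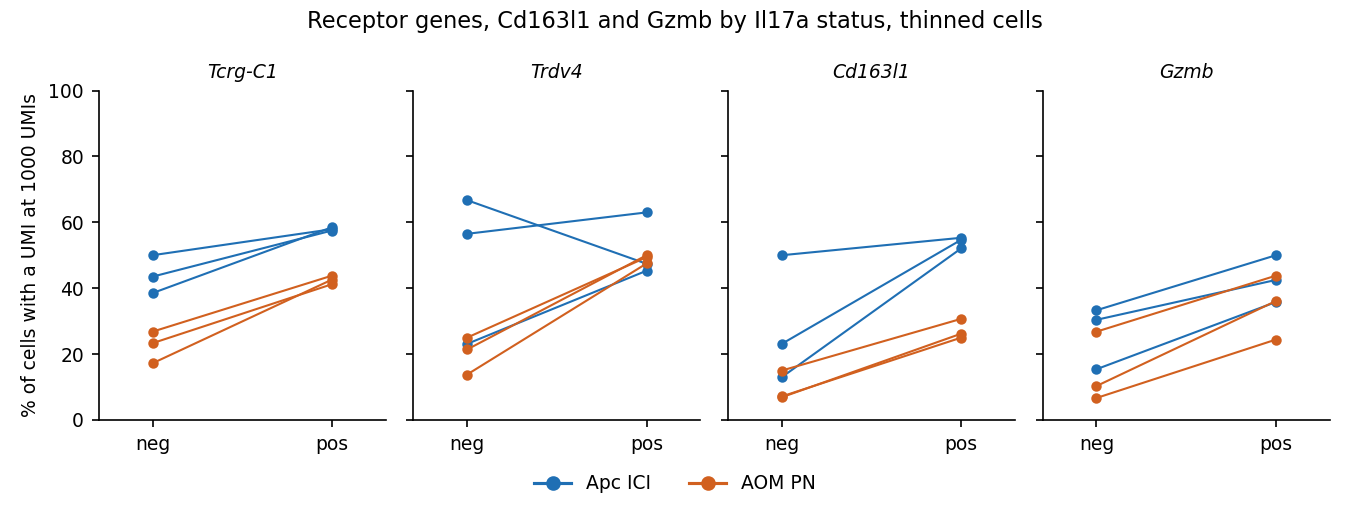
The percentage of cells with a UMI after thinning to 1000 UMIs (vertical axis) is shown for Tcrg-C1, Trdv4, Cd163l1 and Gzmb in Il17a-negative and Il17a-positive gamma-delta cells (horizontal axis), with a line for each of the 6 libraries. Most lines rise towards the positive cells; Trdv4 in Apc ICI 3 falls from 66.7% to 47.4%.

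Between the tumour groups, the genes called in gamma-delta cells included ribosomal protein genes, mast cell genes and single genes of several immune lists. Counts summed over all gamma-delta cells of a library were compared between 3 AOM PN and 3 Apc ICI libraries by edgeR's quasi-likelihood test with Benjamini-Hochberg adjustment over 6690 genes, of which 61 were higher and 38 lower in AOM PN. Percent called was 1.48 in either direction, 0.912 higher and 0.568 lower, and the groups did not overlap for 20.1 percent of genes. Of the 61 higher genes, 24 encode ribosomal proteins and 6 belong to a mast and basophil list. The largest higher differences were those of the mast cell genes Cma1 (9.85), Mcpt2 (8.54), Ms4a2 (7.99), Tpsb2 (7.98), Mcpt1 (7.66), Mcpt4 (7.61) and Fcer1a (6.72), which are described further on.

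The genes lower in AOM PN included 3 receptor genes of the lists or the largest falls. Klri2 (chr6:129729041-129740484, minus strand), a lectin-type receptor of NK cells, was at 170, 177 and 167 CPM in the Apc ICI libraries and 34.7, 30.6 and 30.2 CPM in AOM PN (-2.44 ± 0.17, adjusted p = 0.000167). Cd163l1 was at 748, 631 and 692 CPM in the Apc ICI libraries and 257, 362 and 380 CPM in AOM PN (-1.05 ± 0.17, adjusted p = 0.0235). Tnfrsf9 (4-1BB), a costimulatory receptor induced on activated T cells, was at 957, 1390 and 1490 CPM against 650, 528 and 561 CPM (-1.14 ± 0.18, adjusted p = 0.0224). All Apc ICI libraries lay above all AOM PN libraries for these 3 genes. That was required of Klri2, as of every gene named for the largest change, so it adds no support for such genes. The largest falls were those of Ifit1 and Batf3. Batf3, a transcription factor of activated T cells and dendritic cells, was at 98.0, 89.7 and 56.9 CPM against 15.3, 21.3 and 7.33 CPM (-2.69 ± 0.38, adjusted p = 0.0161), and the interferon-induced Ifit1 at 50.2, 55.4 and 15.8 CPM against 5.56, 1.33 and 7.33 CPM (-2.91 ± 0.50, adjusted p = 0.0241). Tcrg-C1, at 1020, 1140 and 784 CPM against 573, 573 and 627 CPM, missed the threshold (-0.73 ± 0.16, adjusted p = 0.0525), although its groups did not overlap.

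Beside the ribosomal and mast cell genes, some list members linked to egress, residency and activation were higher in AOM PN. Klf2 (chr8:72319033-72321656, plus strand), a factor that controls lymphocyte egress, was at 44.2, 95 and 28.4 CPM in the Apc ICI libraries and 310, 826 and 433 CPM in AOM PN (3.24 ± 0.44, adjusted p = 0.0161). Itgae (CD103), an integrin that binds epithelial E-cadherin, was at 37, 42.2 and 41.1 CPM against 200, 112 and 125 CPM (1.86 ± 0.26, adjusted p = 0.0161). Cd69, which holds lymphocytes in tissue and marks activation, was at 405, 319 and 275 CPM against 575, 814 and 769 CPM (1.10 ± 0.19, adjusted p = 0.0241). Klf2 and the residency genes Itgae and Cd69 were thus all higher in AOM PN, without overlap of the libraries. The AP-1 subunit Jun was at 477, 414 and 464 CPM against 1090, 1100 and 1130 CPM (1.29 ± 0.13, adjusted p = 0.00442), and Jund rose by 0.83 ± 0.16 (adjusted p = 0.0325). Tnfsf8 (CD30 ligand) rose by 2.77 ± 0.52 (adjusted p = 0.0325) and Ifitm1, an interferon-induced membrane protein, by 3.41 ± 0.50 (adjusted p = 0.0162).

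Most cytokine and type 17 genes did not pass between the groups. Il17a was at 4660, 7580 and 4010 CPM in the Apc ICI libraries and 5120, 5670 and 12900 CPM in AOM PN (0.54 ± 0.34, adjusted p = 0.511). Areg was at 6800, 5850 and 3390 CPM against 6710, 6300 and 6280 CPM (0.26 ± 0.22, adjusted p = 0.632). Il22 was at 229, 68.6 and 1120 CPM against 755, 3840 and 1010 CPM (2.01 ± 0.84, adjusted p = 0.302), and Trdv4 at 1300, 631 and 995 CPM against 766, 741 and 1070 CPM (-0.19, adjusted p = 0.799). Tcrg-V6 was at 92.0, 76.5 and 53.7 CPM against 44.5, 31.9 and 60.8 CPM (-0.68 ± 0.27, edgeR's adjusted p = 0.281). All of these overlapped between the groups. None of 14 tested type 17 factors and none of 7 tested gamma-delta receptor genes passed, with list medians of -0.25 and -0.64 against -0.02 over all genes. Of 9 type 17 cytokines 1 rose (Tnfsf8), of 27 type 17 receptor and surface genes 1 rose (Kit) and 2 fell (Cd163l1 and Capg), and of 12 intraepithelial genes 2 rose (Itgae and Cd69).

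The remaining lists had few calls, with medians on both sides of the -0.02 of all genes. Of 12 checkpoint genes 1 fell (Tnfrsf9), and of 10 interferon response genes 1 fell (Ifit1). Of the immediate early and heat shock list 2 of 16 rose (Jun and Jund). Of 16 genes of the interferon gamma and cytotoxic list 1 rose, Klf2, which is the egress factor described above. Ifng, Gzma and Gzmb of that list did not pass. None of the 16 cell cycle, 13 glycolysis, 7 repair or 6 naive lymphocyte genes tested passed. The median log2 difference was 0.68 for the immediate early and heat shock list, of which 12 of 16 genes were on the higher side, and 0.64 for the interferon gamma and cytotoxic list, of which 12 of 16 were. It was 0.74 for the 12 intraepithelial genes, -0.38 for the checkpoint list, -0.32 for the interferon response list and -0.52 for the cell cycle list, of which 3 of 16 genes were on the higher side. Ribosomal protein genes, which were counted after they were seen among the calls, were higher in AOM PN for 24 of 81 and lower for none, with a median of 0.64; their many near-identical copies make single values uncertain.

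Mast cell transcripts moved with the group. All 6 tested genes of a mast and basophil list were higher in AOM PN, with a median log2 difference of 7.82, and the list's summed level in the gamma-delta cells was 23.8 to 63.2 CPM in the Apc ICI libraries and from 2780 to 20500 CPM in AOM PN. The mast cell protease gene Cma1 had 1 UMI over the 3 Apc ICI sums and 120, 355 and 3583 UMIs in AOM PN 1 to 3, and Mcpt2 had 16 UMIs against 1112, 1020 and 22150; reads of the Mcpt genes may be shared between copies. In AOM PN, 5, 1 and 24 cells with at least 1% of their UMIs from the list held 73.6%, 95% and 93.0% of it, and 5, 0 and 18 of them were marked as doublets. Without those cells 75 genes were called, 73 of them among the 99, and Klf2, Itgae, Cd69, Jun, Klri2, Batf3, Tnfrsf9 and Cd163l1 kept their calls, whereas Kit, Capg and Ifitm1 lost theirs.

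The number of group calls depended on the libraries included. Without Apc ICI 3 a single gene, Klri2, was called, although 918 genes had an unadjusted p under 0.05, against 962 with all 6 libraries. Klri2 was the only gene described here that kept its call in all 16 alternatives; Klf2, Itgae, Jun and Batf3 lost theirs in that setting only. Without Apc ICI 1, Apc ICI 2, AOM PN 1, AOM PN 2 and AOM PN 3 the numbers of calls were 64, 42, 28, 28 and 46, of which 41, 29, 27, 24 and 28 were among the 99. With each library left out the log2 difference was 2.76 to 3.76 for Klf2, 1.59 to 2.02 for Itgae, 1.24 to 1.35 for Jun and -3.06 to -2.16 for Batf3. Tnfrsf9, Cd69, Cd163l1 and Jund lost their calls in 7, 6, 5 and 6 of the 16 settings.

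**Figure D4:**
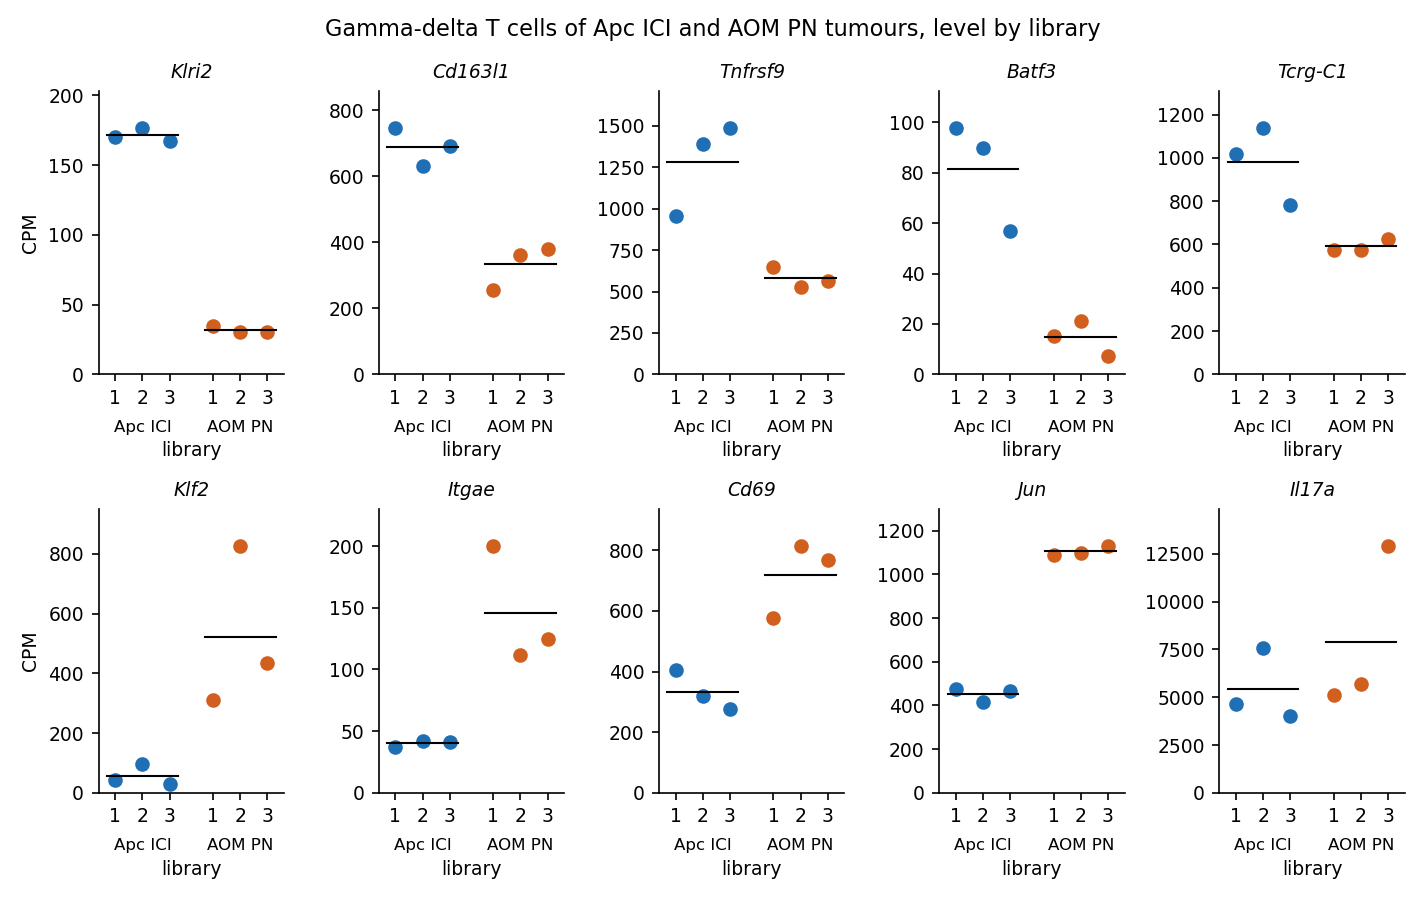
Levels of 10 genes in the summed gamma-delta cells (vertical axis, CPM) are shown as 1 point for each of 3 Apc ICI and 3 AOM PN libraries. Klri2, Cd163l1, Tnfrsf9, Batf3 and Tcrg-C1 are higher in Apc ICI, Klf2, Itgae, Cd69 and Jun are higher in AOM PN, and Il17a overlaps.

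Whether the Il17a split itself differed between the groups was tested as an interaction over 5458 genes. No gene passed by edgeR's quasi-likelihood test with Benjamini-Hochberg adjustment or by DESeq2, while 293 genes had an unadjusted p under 0.05. On simulated counts this fit recovered 3% of planted 2-fold changes and 38% of planted 4-fold changes. The absence of calls therefore could not show that the split was alike in the groups. Cd7 and Cd8a were higher in the negative cells of the AOM PN libraries than in those of Apc ICI 1 and 2, and neither passed this test (edgeR's adjusted p = 0.879 for both). The 32 Cd7 UMIs in the negative cells of Apc ICI 3 were outside this fit.

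Against conventional CD4 T cells of the same tumours, all 7 tested gamma-delta receptor genes beside Trdc were higher in the gamma-delta cells, while other lists had calls in both directions. Over 6 libraries and 7936 genes, in a fit within library, 483 genes were higher and 405 lower in gamma-delta cells (edgeR's quasi-likelihood test with Benjamini-Hochberg adjustment), and percent called was 11.2, or 6.09 higher and 5.1 lower. Without AOM PN 1 there were 588 calls, and with any other single library left out 608 to 745. Levels are means ± SD over the 6 libraries. Trdv4 stood at 896 ± 248 against 3.09 ± 3.04 CPM (8.38 ± 0.29 SE, adjusted p = 1.89e-09) and Blk at 246 ± 68.1 against 9.69 ± 12.9 CPM (5.67 ± 0.40, adjusted p = 1.08e-06). Cd163l1 had 1338 UMIs in AOM PN and 1084 in Apc ICI, and 1 UMI over all CD4 T cells. Areg stood at 5760 ± 1280 against 1180 ± 629 CPM (2.43 ± 0.23, adjusted p = 1.79e-05) and Gzmb at 1390 ± 495 against 340 ± 217 CPM (2.12 ± 0.33, adjusted p = 0.00081). The gamma-delta cells were thus above the CD4 T cells for each of these genes in the mean of the 6 libraries.

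Not every type 17 gene followed. Il17a was 2.08 ± 0.25 higher in the gamma-delta cells (adjusted p = 9.44e-05) and Il22 1.55 ± 0.38 (adjusted p = 0.0176), whereas Il17f, at 181 ± 101 against 138 ± 96.3 CPM, did not pass (0.38 ± 0.51, adjusted p = 0.749). Ccr6 was lower, at 20.9 ± 11.5 against 64.8 ± 25.9 CPM (-1.55 ± 0.29, adjusted p = 0.00332). The costimulatory receptors Tnfrsf4 (OX40) and Cd28 were at 9.06 ± 9.27 against 641 ± 103 CPM and 10.3 ± 9.85 against 329 ± 118 CPM, and Ifng fell by 2.67 ± 0.54 (adjusted p = 0.00534). The inhibitory receptor Pdcd1 (PD-1) was higher, at 372 ± 126 against 100.0 ± 30 CPM (1.85 ± 0.17, adjusted p = 1.21e-05), and the NK receptor genes Klrk1 and Klrc1 rose by 2.28 and 2.99. By list, 7 of 7 gamma-delta receptor genes rose, 5 of 15 type 17 factors rose and 1 fell (Ahr), 14 of 28 type 17 receptor and surface genes rose and 4 fell, 7 of 15 intraepithelial genes rose and none fell, 2 of 8 tissue repair and growth factor genes rose (Areg and Hbegf) and 2 fell (Il10 and Penk), and 6 of 9 naive lymphocyte genes fell. Trac was at 80.6 ± 16.5 against 564 ± 119 CPM (-2.76 ± 0.14, adjusted p = 8.68e-08).

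Against CD8 T cells, most type 17 genes that passed were higher in the gamma-delta cells and most cytotoxic genes that passed were lower. The fit covered 6855 genes in 5 libraries, since Apc ICI 3 had 6 CD8 T cells; 295 genes were higher and 300 lower in gamma-delta cells by the same test, and percent called was 8.68, or 4.3 higher and 4.38 lower. Areg stood at 6160 ± 376 against 338 ± 423 CPM (4.85 ± 0.51, adjusted p = 0.000648), Cd163l1 at 459 ± 199 against 5.83 ± 3.64 CPM (6.06 ± 0.34, adjusted p = 1.65e-05) and Hif1a at 709 ± 47.8 against 266 ± 37.3 CPM (1.43 ± 0.13, adjusted p = 0.000274). Ccl5 was at 443 ± 533 against 5210 ± 2330 CPM (-4.12 ± 0.60, adjusted p = 0.00421), Nkg7 at 189 ± 188 against 1400 ± 581 CPM, and the cytotoxic factor Eomes at 1.96 ± 2.08 against 54.8 ± 18.4 CPM (-4.90 ± 0.44, adjusted p = 0.000314). Gzmb was the exception among cytotoxic genes with a level of 1290 ± 497 against 565 ± 241 CPM (1.24 ± 0.28, adjusted p = 0.0248), together with Il2rb and Cst7, which also rose. By list, 9 of 21 interferon gamma and cytotoxic genes fell and 3 rose, 7 of 14 type 17 factors rose and none fell, 11 of 28 type 17 receptor and surface genes rose and 1 fell (Lgals3), 2 of 7 tissue repair and growth factor genes rose (Areg and Furin) and none fell, and 7 of 14 glycolysis and hypoxia genes rose. Il17a did not pass (3.41 ± 1.13, adjusted p = 0.0925): it stood between 3.03 and 5920 CPM in the CD8 T cells, where 16 of 21 cells (76.2%) of Apc ICI 1 had an Il17a UMI and 57.1% a Tcrg-C1 UMI with no Trdc UMI. Without Apc ICI 1, Apc ICI 2, AOM PN 1, AOM PN 2 and AOM PN 3 the numbers of calls were 947, 475, 190, 200 and 151.

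The group difference itself was not the same in gamma-delta cells and other T cells for some genes. In a test of group by cell class against CD4 T cells, 52 of 7936 genes had a more positive AOM PN to Apc ICI difference in gamma-delta cells and 18 a more negative one (percent called 0.882, with 0.655 in the more positive direction and 0.227 in the other), and against CD8 T cells 5 and 1 of 6855 (percent called 0.0875, with 0.0729 in the more positive direction and 0.0146 in the other). Klf2 stood at 514 ± 265 CPM in AOM PN and 54.3 ± 33.5 CPM in Apc ICI in gamma-delta cells, against 634 ± 139 and 347 ± 237 CPM in CD4 T cells (SD, n = 3 each), a difference between the classes of 2.33 ± 0.35 on the log2 scale (edgeR's adjusted p = 0.0235). For Tcf7 the difference between the classes was 2.87 ± 0.46 (adjusted p = 0.0245). Its means in AOM PN and Apc ICI were 86.4 ± 32.4 and 28.5 ± 28.4 CPM in gamma-delta cells, and 126 ± 55.0 and 257 ± 139 CPM in CD4 T cells. In gamma-delta cells AOM PN 3 (61.3 CPM) was barely above Apc ICI 2 (61.2 CPM), and in CD4 T cells the groups overlapped. This test was of the difference between the classes and not of the groups within either class. The number of calls changed with the libraries included: without Apc ICI 1, Apc ICI 2, Apc ICI 3, AOM PN 1, AOM PN 2 and AOM PN 3 the CD4 contrast had 1, 2, 126, 7, 1 and 2 calls, and without Apc ICI 1, Apc ICI 2, AOM PN 1, AOM PN 2 and AOM PN 3 the CD8 contrast had 29, 55, 0, 18 and 1.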

How the data were processed

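Single-cell 3′ RNA-seq (10x Chromium v3) was made from DAPI-sorted, dissociated tumours, per the labels' protocols. The authors deposited matrices of raw UMI counts, from Cell Ranger 6.1.2 with the build mm10, per the submitters' processing notes; other settings are not given in the sources used here. The gamma-delta cells and all gene lists were chosen with earlier results of these data known. Barcodes needed 200 genes or more and a mitochondrial share no higher than 20%. Counts were summed per library and cell class, sums of fewer than 10 cells were left out, and genes passing edgeR's filter on low counts were fitted with edgeR 4.0.16 (R 4.3.3; TMM scaling, quasi-likelihood test, Benjamini-Hochberg adjusted p under 0.05), with library as a block between classes. CPM are TMM-scaled within each fit, so a gene's level differs slightly between comparisons, and they are not per length. Every fit was tested on simulated data. Shares were compared by exact permutation over libraries, and cells were thinned to 1000 UMIs with Python 3.11.15 and numpy 2.4.6. Intervals are exact binomial and cover counting error only. Sums held 64114 to 2585539 UMIs. Named genes were up to 12 in each direction with the largest change among those called, with at least 30 UMIs and the same direction in every library or pair, members of the lists that passed, and a fixed panel of type 17 and receptor genes; rule, haemoglobin, immunoglobulin and mitochondrial genes were left out of the first part. Doublets were scored against simulated pairs at 0.8% per 1000 barcodes. Alternatives were DESeq2 1.42.0, no filter on low counts, stricter cell limits, thinning, blocks and leaving out each library; leaving out cells rich in mast cell transcripts was chosen after seeing the data. The same replicate numbers in the groups did not pair the libraries: correlations of their deviations were 0.03, -0.05 and -0.15 over 2934 genes. A gene of the panel and lists is not reported here and was left out of the list counts.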

Additional observations from a re-analysis of the deposited data

Results flagged for a closer look

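The results below were picked out because the difference between AOM PN and Apc ICI in gamma-delta cells differed from that in other T cells of the same libraries by a test of the difference itself (edgeR's quasi-likelihood test of the group by class term, Benjamini-Hochberg adjusted). Each value is the AOM PN to Apc ICI log2 difference in gamma-delta cells minus that in the other class.

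Against CD4 T cells, the difference was more positive in gamma-delta cells for Evl (3.6), Tcf7 (2.87), Bcl2 (2.36), Klf2 (2.33), Elmsan1 (2.16), Lmo4 (2.10), Dusp10 (1.93), Tnfrsf18 (1.86), Lef1 (1.81), Ms4a4b (1.68), Rps7 (0.95) and Rpl36a (0.91). Tcf7 and Lef1 encode factors of naive and memory-like T cells, Bcl2 a survival protein and Tnfrsf18 the costimulatory receptor GITR. Tnfrsf18 stood at 94.4 ± 13.5 CPM in AOM PN and 41.2 ± 15.5 CPM in Apc ICI in gamma-delta cells and at 348 ± 23.7 and 535 ± 167 CPM in CD4 T cells (SD, n = 3 each). Of 81 ribosomal protein genes tested, 41 were more positive and 0 more negative, with a median of 0.69 against -0.03 over all genes. Rps7 stood at 3190 ± 319 against 1770 ± 285 CPM in gamma-delta cells and at 3450 ± 240 against 3750 ± 1020 CPM in CD4 T cells.

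The difference was more negative in gamma-delta cells for Il1a (-5.72), Tff1 (-4.90), Selenom (-4.21), Ier3 (-2.81), Gm5547 (-2.67), Cd74 (-2.49), Mcm6 (-2.48), Cst3 (-2.24), Ccr1 (-1.76), Socs2 (-1.74), Timp2 (-1.55) and Anxa2 (-1.52). Of the 69 Il1a UMIs in gamma-delta cells of Apc ICI, 64 came from Apc ICI 2 (163 CPM, against 4.71 and 3.05 CPM in Apc ICI 1 and 3), and in that library the neutrophil list summed to 4480 CPM in the gamma-delta cells, against 195 and 330 CPM. The Il1a value was -6.01 to -5.37 with single libraries left out, where it was tested, and its call was lost when Apc ICI 2 was left out, as it was for Apc ICI 1 and for AOM PN 1 and 2. Selenom, a selenoprotein, stood at 64.0 ± 20.6 CPM in AOM PN and 117 ± 58.1 CPM in Apc ICI in gamma-delta cells and at 64.1 ± 13.6 and 6.77 ± 1.87 CPM in CD4 T cells. The CD4 T cells of Apc ICI held only 4 Selenom UMIs in all, so that level and its SD are uncertain. For Gm5547 and Mcm6 they held 7 and 11 UMIs, and for Il1a, the gene with the largest value here, only 1. Cd74 and Cst3, which are abundant in antigen-presenting cells, moved in the CD4 T cells: Cd74 stood there at 804 ± 522 against 93.4 ± 24.3 CPM, and in gamma-delta cells at 126 ± 77.0 against 92.9 ± 23.9 CPM. Tff1, an epithelial product, stood in CD4 T cells at 588 ± 399 against 125 ± 178 CPM. A list of epithelial markers without Tff1 summed in these cells to 18.7 to 62.8 CPM in AOM PN and 67.9 to 121 CPM in Apc ICI. The part of other cells' RNA in these values was not tested.

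Against CD8 T cells the difference was more positive in gamma-delta cells for Hlf (4.30), Hbegf (3.81), Ramp1 (3.61), Lmo4 (3.49) and Actn2 (2.43) and more negative for Hist1h2ae (-4.94). The CD8 T cells of Apc ICI held only 3 Hist1h2ae UMIs. Actn2 stood at 437 ± 20.3 CPM in AOM PN (n = 3) and 372 ± 43.8 CPM in Apc ICI (n = 2) in gamma-delta cells and at 82.9 ± 29.0 and 368 ± 53.7 CPM in CD8 T cells, where the Apc ICI libraries held 21 and 18 cells and many of them an Il17a UMI.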

How the results depend on the processing

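The share of CD3-positive barcodes kept its direction in every alternative run. The share of kept barcodes was 0.541 percentage points higher in AOM PN and -0.174 to 0.941 with each library left out; the Il17a-positive share turned to 3.31 when thinned to 500 UMIs and ranged from -9.87 to 3.59 with each library left out. Calls between the groups numbered 99, and 158 by DESeq2, 466 without the filter on low counts, 50 with Trac at 0 and 1 to 64 with each library left out. Replicate numbers did not pair the libraries; with a replicate block there were 60 calls, 36 shared. Calls of the Il17a split numbered 135, and 430 without the filter, 75 with at least 2 Trdc UMIs, 31 with Trac at 0, 37 thinned, 30 without a library block and 23 to 164 with each library left out; its interaction with group gave 45 without the filter, 1 thinned and 0 to 7 with each library left out. Against CD4 there were 888 calls, and 340 thinned, 564 without a library block and 588 to 745 with each library left out; against CD8, 595, and 1061 without the filter, 332 thinned, 330 without a library block and 151 to 947. The group by class term against CD4 gave 70, and 108 by DESeq2, 245 without the filter, 43 with at least 2 Trdc UMIs, 2 with Trac at 0, 0 thinned and 1 to 126; against CD8, 6, and 163 without the filter, 2 with Trac at 0, 2 without doublets and 0 to 55. Genes that passed in neither setting changed sign. Between the groups Il17f gave 0.25 with at least 2 Trdc UMIs, 0.17 with Trac at 0, 0.38 thinned, -0.55 to 0.60 with each library left out and 0.24 with the replicate block; Gzmb -0.07 thinned and -0.02 to 0.61 with each library left out; Gzma -0.33 to 1.5; Tcrg-C4 0.18 thinned; Trdv4 -0.42 to 0.10 with each library left out. In the Il17a split 5830411N06Rik gave 0.05 without the filter, 0.31 thinned and -0.35 to 0.39 with each library left out; against CD4, Il17f gave -0.22 with at least 2 Trdc UMIs and -0.04 to 0.69 with each library left out. The cause of these changes was not tested. Thinned sums and sums with fewer cells hold fewer UMIs, and the thinned fits tested fewer genes, such as 1530 against 6690 between the groups.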
